A study of Rattus norvegicus with 8 samples.

Results

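Adult rat livers of one array slide differed in the mRNA of Dbp, a transcription factor driven directly by the circadian clock, and the arrays were set side by side by that difference. The 2 sets, chosen by the measured Dbp value, take in all 8 arrays of the series. The 4 with the highest Dbp log2 ratio in the authors' value table were AhR 1 at 1.5, AhR 2 at 1.27, control 1 at 0.36 and AhR 3 at 0.09. The 4 with the lowest were control 4 at -0.41, control 2 at -1.34, control 3 at -1.51 and AhR 4 at -2.19. The last array inside the high set and the first outside it, AhR 3 and control 4, lay 0.49 log2 units apart. The array carries 3 Dbp probes, and each of them put the same 4 arrays highest, with gaps of 0.49, 0.25 and 0.28. Since measured values chose the sets, every difference between them is a description with no p-value, and Dbp itself supports nothing.

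The livers came from male Sprague-Dawley rats aged 78 to 86 days. Control offspring were born to dams given only the corn oil vehicle. AhR offspring were born to dams given a mixture of agonists of the aryl hydrocarbon receptor (AhR), namely non-ortho PCBs, dioxins and furans, at 1.8 ng of TCDD equivalents per kg per day from gestation day 0 to postnatal day 20. Each array held Cy5-labelled liver RNA pooled from 2 rats beside a Cy3-labelled universal rat reference from 14 cell lines, and each group had 4 arrays. The high set thus held 1 control and 3 AhR arrays, and the low set 3 control and 1 AhR array. The time of day at which the livers were taken is not given in the sources used here.

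In the mammalian clock, BMAL1 pairs with CLOCK, or with its relative NPAS2, and switches on genes that carry E-box sequences, among them the Per, Cry and Nr1d genes and Dbp. PER and CRY proteins then repress that pair, while NR1D1 and NR1D2 repress Bmal1 and Npas2 through ROR elements. Liver uses DBP and its relatives TEF and HLF, which act on D-box sequences and are opposed by NFIL3, to pass the rhythm on to genes of drug, lipid and bile acid metabolism.

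Promoters are shown for 4 genes whose values differed between the sets, because they hold the short sequences on which these factors act. Each line gives the 250 bases before the start of the gene from RefSeq, build GRCr8, on the strand of the gene, with the match in capitals. They lie at chr1:176766078-176766327 on the plus strand for Bmal1, chr9:99496994-99497243 on the minus strand for Per2, chr7:115206577-115206826 on the plus strand for Tef and chr12:26635810-26636059 on the minus strand for Por.
Bmal1: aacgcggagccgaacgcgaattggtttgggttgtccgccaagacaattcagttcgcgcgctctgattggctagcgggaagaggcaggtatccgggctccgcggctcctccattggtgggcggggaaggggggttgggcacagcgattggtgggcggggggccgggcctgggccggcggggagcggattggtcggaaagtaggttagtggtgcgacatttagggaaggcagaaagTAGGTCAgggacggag
Per2: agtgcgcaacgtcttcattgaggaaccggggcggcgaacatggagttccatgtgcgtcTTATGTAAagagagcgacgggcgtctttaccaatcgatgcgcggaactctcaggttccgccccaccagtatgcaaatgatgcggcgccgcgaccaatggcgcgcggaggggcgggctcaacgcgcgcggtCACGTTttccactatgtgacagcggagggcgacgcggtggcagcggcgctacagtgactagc
Tef: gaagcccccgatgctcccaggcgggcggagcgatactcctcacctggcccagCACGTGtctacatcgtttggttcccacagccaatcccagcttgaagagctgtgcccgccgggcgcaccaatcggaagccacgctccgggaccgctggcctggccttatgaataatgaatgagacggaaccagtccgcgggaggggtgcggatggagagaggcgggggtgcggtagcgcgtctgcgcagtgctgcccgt
Por: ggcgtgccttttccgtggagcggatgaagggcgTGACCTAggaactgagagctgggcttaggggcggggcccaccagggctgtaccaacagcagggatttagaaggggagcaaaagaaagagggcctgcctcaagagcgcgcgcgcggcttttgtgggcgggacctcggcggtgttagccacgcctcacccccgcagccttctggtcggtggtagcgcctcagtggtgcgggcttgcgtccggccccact
Bmal1 held the ROR element TAGGTCA 16 to 10 bases before its start. Per2 held TTATGTAA, a form of the D-box type letters TTANGTAA, 192 to 185 bases before its start, and the E-box-like CACGTT 62 to 57 bases before it. Tef held the E-box CACGTG 198 to 193 bases before its start, and Por held TAGGTCA on the opposite strand, seen as TGACCTA 217 to 211 bases before its start. These motifs, and GGGTCA, were searched on both strands in all 33469 RefSeq windows of this length. CACGTG was present in 5.59% of them, CACGTT in 4.07%, TTANGTAA in 2.04%, TAGGTCA in 2.26% and GGGTCA in 11.9%. Of 17 genes looked up, 15 had a window and 8 of these held a motif. The share of all windows that hold any of these motifs was not computed. It is larger than each single share, so the 8 of 15 cannot be set beside those. Herpud1 and Insig2 held CACGTT, and the windows of Dbp and Npas2 held none of these letters. Gpm6a and Acsbg1 held only GGGTCA, the most frequent of these motifs. A match is a description of the letters and not a site of binding.

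Values below are log2 Cy5/Cy3 after background correction and loess, and lie relative to the reference RNA, so a probe is compared across arrays and never with another probe. A gene was said to follow the split where the 4 high and the 4 low arrays did not overlap and their means differed by 1.5-fold or more. The 16 hepatocyte markers measured, such as albumin and prothrombin, were well above background on all 8 arrays, and their median difference between the sets was -0.03. Median Cy5 brightness ran from 159 to 232 on the high arrays and from 159 to 184 on the low ones, over a background of 71 to 76. Between 56.2% and 62% of probes were well above background on an array, and none was saturated. The 8 arrays shared 1 slide and 1 scan day.

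Dbp read 1.41, 1.22, 0.32 and 0.08 on AhR 1, AhR 2, control 1 and AhR 3, and -0.42, -1.36, -1.52 and -2.21 on control 4, control 2, control 3 and AhR 4. All values per array below keep that order. The mean was 0.76 ± 0.66 (SD, n = 4) in the high set and -1.38 ± 0.74 (SD, n = 4) in the low set, a 4.39-fold span that the choice of arrays set. Apart from Dbp, 17 of 10002 genes followed the split, or 0.170%, with 11 higher (0.110%) and 6 lower (0.0600%). Non-overlap at any size was met by 187 genes (1.87%), and 60 (0.600%) reached 1.5-fold whether or not the sets overlapped, 43 of these with overlap. The median difference over all 10002 genes was 0.001, with 5037 means higher (50.4%) and 4965 lower. Counts of list members below are to be read beside these all-gene shares.

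Among the activators of the clock, Bmal1 had the widest difference downward of any gene measured. It read -0.66, -1.33, -0.57 and -0.29 on the high arrays and 0.63, 0.43, 0.23 and 0.91 on the low arrays. Every high array was thus below the reference and every low array above it. The means were -0.71 ± 0.44 and 0.55 ± 0.29 (SD, n = 4 each), 2.40-fold lower in the high set, and the second Bmal1 probe differed by -0.94. Npas2 had the same direction, at -0.40, -0.36, 0.14 and -0.17 on the high arrays against 0.36, 0.45, 0.51 and 0.87 on the low ones. Its mean difference was -0.74, or 1.67-fold, on the brighter of its probes, while the dimmer probe differed by 0.04, so the 2 probes of Npas2 disagreed. Clock, the main partner of BMAL1, overlapped between the sets at -0.21 ± 0.23 against 0.15 ± 0.35 (SD, n = 4 each). Its highest values came from control 2 at 0.42 and AhR 4 at 0.44.

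Of the repressors, Per2 was higher in the high set. It read 0.82, 0.92, 0.43 and 0.28 on the high arrays and -0.04, 0.08, -0.17 and -0.70 on the low ones, and the lowest high array stood 0.20 above the highest low array. Its means were 0.61 ± 0.30 and -0.21 ± 0.35 (SD, n = 4 each), a 1.77-fold difference. The other repressors overlapped. Cry1 differed by -0.12 and Cry2 by 0.01, while Per3 differed by 0.06. Cry1 was at 0.56 on AhR 1 but between -0.47 and -0.24 on the other three high arrays.

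The nuclear receptors that act on Bmal1 showed small differences. Nr1d1 averaged 0.36 ± 0.18 in the high set and 0.08 ± 0.38 in the low set (SD, n = 4 each), with control 3 and control 4 of the low set at 0.36 and 0.44. Nr1d2 differed by 0.11. Bhlhe40, a repressor that binds E-boxes, differed by 0.31, yet the high array control 1 held the lowest value of all, -0.59. The casein kinase genes Csnk1d and Csnk1e, whose proteins mark PER for degradation, differed by 0.12 and 0.09, and Timeless by 0.13. The dimmer Csnk1e probes went the other way, at -0.18 and -0.12. In all, 14 of the 19 clock core genes listed were measured, of which 1 followed the split upward and 2 downward. Per1 and Ciart were well above background on too few arrays to be kept, and Rora and Bhlhe41 were among those with no matched probe.

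**Figure D1:**
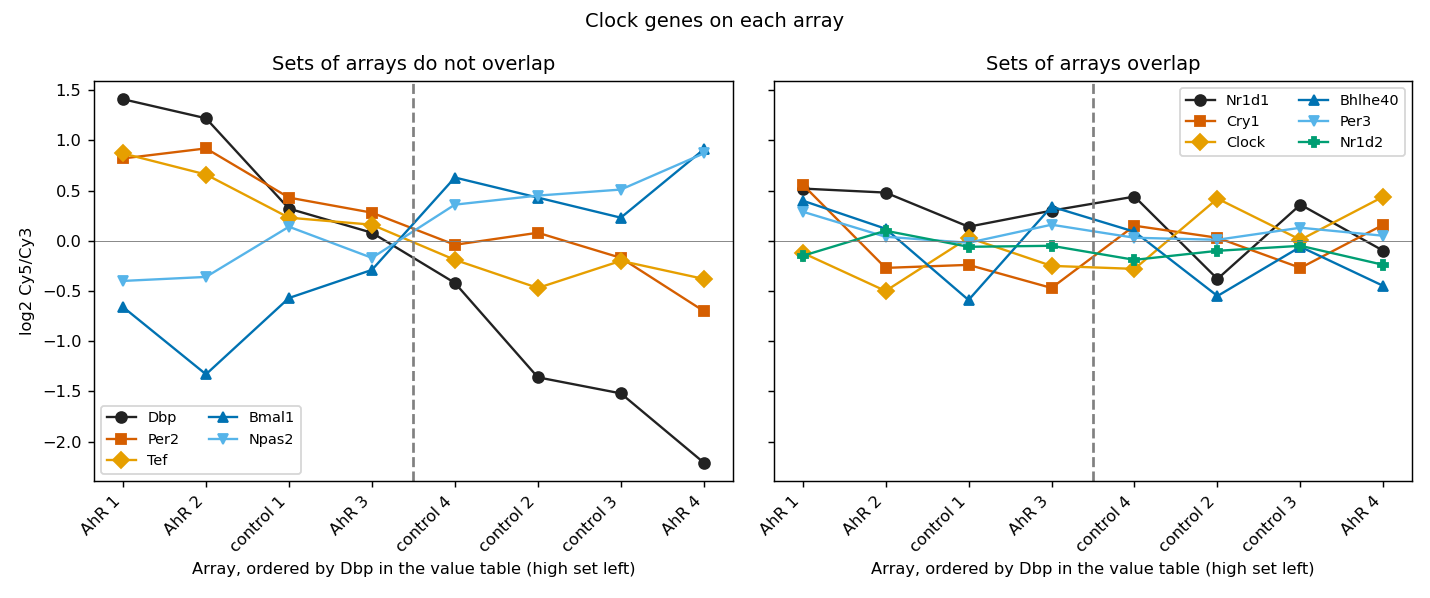
Log2 Cy5/Cy3 of clock genes on each of the 8 arrays, ordered from left to right by Dbp, with a dashed line between the high and the low set. In the left panel Dbp, Per2 and Tef lie above and Bmal1 and Npas2 below their low-set values on all 4 high arrays; in the right panel the 2 sets overlap for Nr1d1, Cry1, Clock, Bhlhe40, Per3 and Nr1d2.

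Among the clock's output genes, Tef and Por followed the split. Tef, a close relative of Dbp, read 0.87, 0.66, 0.23 and 0.16 on the high arrays and -0.19, -0.47, -0.20 and -0.38 on the low ones, with no overlap and a 1.73-fold difference. Por, the reductase that passes electrons to the microsomal P450 enzymes, read 0.74, 0.10, 0.07 and -0.37 against -0.48, -1.0, -0.53 and -0.58. AhR 3 stood 0.11 above the highest low array, so the separation of Por rested on a narrow gap, and its means differed 1.72-fold. Of the 17 output genes measured, 14 had a higher mean in the high set. The list median was 0.28 (0.23 without control 4 and 0.46 without AhR 3), beside 0.001 for all genes.

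The other output genes overlapped between the sets. Upp2, a uridine phosphorylase, had the widest mean difference of the list, 1.14, with values of 0.29, 0.81, 1.21 and -1.06 on the high arrays against 0.09, -1.20, -1.07 and -1.10. AhR 3 alone lay with the low arrays there. A group named after its values were seen includes Nampt, which makes NAD precursor, at 0.67, the deubiquitinase Usp2 at 0.64, the cell cycle kinase Wee1 at 0.53 and Noct at 0.78. Nfil3, the repressor that opposes DBP, differed by -0.57, with -0.13 ± 0.44 in the high and 0.44 ± 0.30 in the low set (SD, n = 4 each). Noct spread from -1.20 to 1.02 on the high arrays and from -1.72 to 0.81 on the low ones, wider than its mean difference.

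Outside the clock lists, Hsd17b2 had the widest difference of any gene but Dbp. It encodes a dehydrogenase that oxidises estradiol and testosterone to less active forms. Its values were 0.99, 1.02, 0.28 and 0.24 on the high arrays and -0.21, -1.20, -0.60 and -1.44 on the low arrays. All 4 high arrays lay above the reference and all 4 low arrays below it, with means of 0.63 ± 0.43 and -0.86 ± 0.56 (SD, n = 4 each), a 2.82-fold difference. Dipk2a, a gene of the divergent protein kinase family, went the other way, at -0.77, -0.90, -0.68 and -0.24 against 0.07, 0.05, 0.52 and 0.96. Again no high array overlapped the low ones, and the means differed 2.06-fold.

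The remaining followers had smaller differences. Herpud1, a part of the degradation machinery of the endoplasmic reticulum, read 1.04, 0.79, 0.69 and 0.72 on the high arrays and 0.26, -0.25, 0.52 and -0.18 on the low ones. Klf16, a zinc finger transcription factor, was 1.66-fold and Rgs4, a regulator of G protein signalling, 1.71-fold higher in the high set. Gpm6a, a membrane glycoprotein best known from neurons, was 1.86-fold higher, and the gap between AhR 1 at -0.09 and AhR 4 at -0.15 was narrow. The acetyltransferase genes Nat8 and Nat8f2 were 1.71- and 1.62-fold higher; they are close relatives, and how far each probe reads the other's mRNA was not tested. Acsbg1, an acyl-CoA synthetase, was 1.55-fold lower. C8h15orf39 was 1.5-fold lower, at the threshold, and its sets lay only 0.01 apart, the narrowest gap of the 16 followers described. The 16 followers described were well above background on 8 arrays, and 14 of them rest on 1 kept probe. In the Cy3 reference channel taken alone, their differences between the same sets ran from -0.13 to 0.07.

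**Figure D2:**
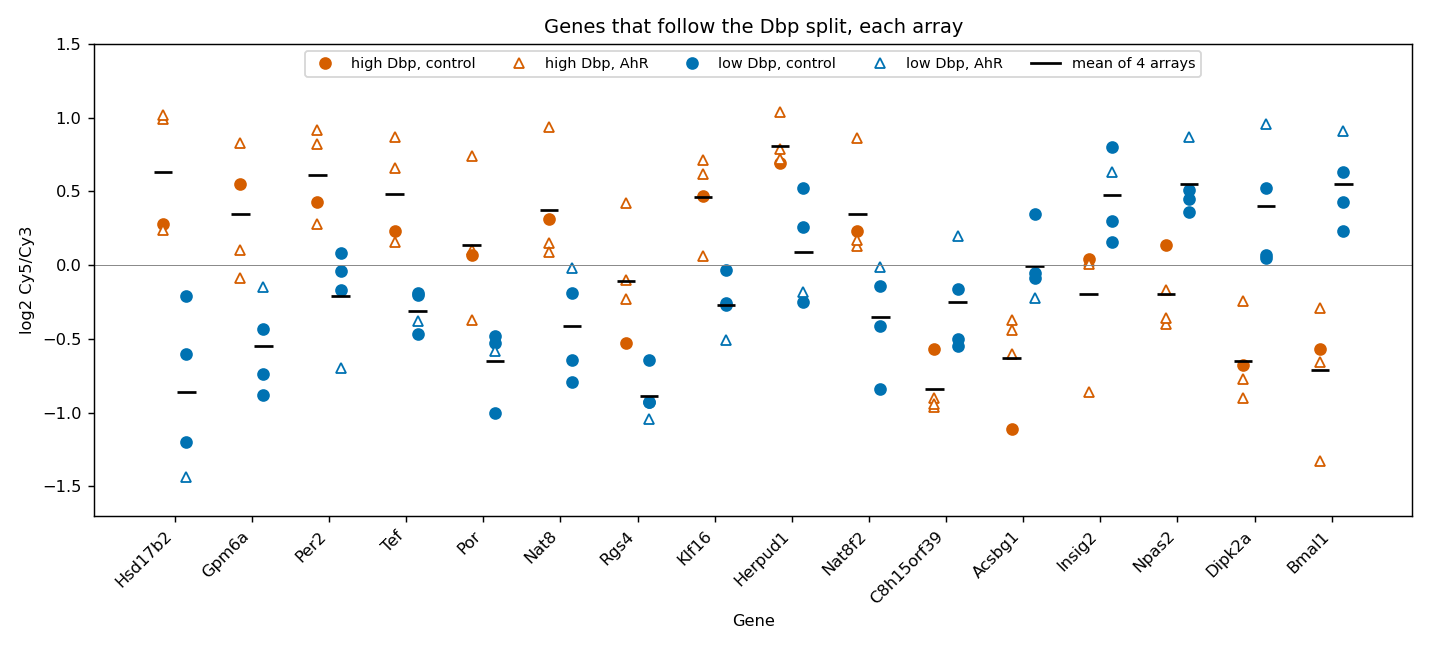
Log2 Cy5/Cy3 on each array for 16 genes that follow the Dbp split, with orange for the high and blue for the low set, circles for control and triangles for AhR arrays and a black bar for each set's mean of 4 arrays. Hsd17b2 at the left spans 0.63 against -0.86 and Bmal1 at the right -0.71 against 0.55, and the points of the 2 sets do not overlap for any gene shown.

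Cholesterol synthesis genes had higher means in the high set in 20 of 23 cases, beside 50.4% of all genes. Their list median was 0.25, or 0.15 without control 1. Of the 23, 1 followed the split upward and 2 had no overlap, beside 0.110% and 1.87% of all genes. Most of the 23 encode enzymes that build the sterol from acetyl-CoA. Insig2, whose protein holds back the activation of the sterol-sensing factors in the endoplasmic reticulum, is counted in the feeding list and not among the 23. It was 1.59-fold lower, at -0.86, 0.03, 0.04 and 0.01 against 0.80, 0.30, 0.16 and 0.63. Leaving out AhR 1 brought the difference of Insig2 from -0.67 to -0.45, under 1.5-fold. Its relative Insig1, which is among the 23, went the other way, at 0.29 with overlap. A link of either gene to the other members was not tested. The squalene epoxidase gene Sqle differed by 0.61 with overlap, since the high array AhR 2, at -1.34, lay among the low arrays and AhR 3, at -1.22, at their edge. Msmo1 differed by 0.47, Idi1 by 0.44, Fdft1 by 0.39 and Cyp51 by 0.38, all with overlap, and Sc5d by 0.25 without it. Leaving out control 1 brought Sqle to 0.40 and Msmo1 to 0.30. Srebf2, which encodes the factor that drives this pathway, differed by 0.06. Medians of the list on single arrays ran from -0.36 to -0.06 in the high set and from -0.57 to -0.35 in the low set.

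Feeding and lipogenesis genes did not share a direction. Their median over 19 genes was -0.00, with 9 means higher and 10 lower, and Insig2 was the 1 follower among them. Elovl6, a fatty acid elongase, differed by 0.78 on its brighter and 0.25 on its other probe, with values of -0.38, -0.62, 0.05 and -0.20 on the high arrays against -1.82, 0.05, -0.95 and -1.54. Control 2 of the low set equalled the highest high array there. Thrsp, a marker of lipogenesis, differed by 0.53 and overlapped.

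The fasting and gluconeogenesis list had a median of 0.01 over 17 genes and no follower. Angptl4, a fasting-induced inhibitor of lipoprotein lipase, differed by -0.59 and overlapped, with AhR 4 at 1.10 and control 3 at 0.74 as its highest values. Fbp1, an enzyme of gluconeogenesis, was without overlap at 0.62, 0.54, 0.45 and 0.30 on the high arrays against 0.09, 0.29, 0.13 and 0.05, though the difference of 0.33 was under 1.5-fold. The 25 fatty acid oxidation genes had a median of 0.02 and no follower, from -0.47 for the lipid droplet coat gene Plin2 to 0.32 for Cyp4a2. Glycogen genes had a median of 0.10 over 10 members, led by the glucose transporter gene Slc2a2 at 0.41, Ugp2 at 0.38 and the glycogen synthase gene Gys2 at 0.28. Amino acid catabolism genes had a median of 0.11 over 20 members, with 16 means higher and none following. Their range ran from -0.18 to 0.48, the latter for Sds, and Arg1 of the urea cycle differed by 0.32.

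Cyp7a1, the rate-limiting enzyme of bile acid synthesis, read 0.42, -0.84, 0.71 and -1.84 on the high arrays and -1.04, -1.13, -1.53 and -0.78 on the low ones. Its highest arrays were control 1 and AhR 1, and AhR 3 was its lowest of all, so that the difference of 0.74 lay within the spread of the high set (SD 1.18, n = 4). Nr0b2, a nuclear receptor that represses Cyp7a1, differed by 0.85 over an SD of 1.44 in the high set. The list had a median of -0.06 over 17 genes and no follower, with Akr1d1 lowest at -0.36.

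Glucocorticoid-responsive genes had a median of 0.19 (0.11 without control 1 and 0.32 without AhR 3) over 15 members, 11 of them with a higher mean, and none followed the split. Klf9, a transcription factor induced by glucocorticoids, read 0.63, 0.01, 0.34 and -0.04 on the high arrays and 0.07, -0.88, -0.20 and -0.58 on the low ones, with only control 4 reaching into the high range. Sgk1 differed by -0.56 and Tdo2 by 0.45, while Fkbp5 differed by 0.25 and Tsc22d3 by 0.29. Immediate early genes had a median of 0.09 over 13 members, from -0.27 for Jun to 0.23 for Junb, with Atf3 at 0.21. In the heat shock and cold-inducible list, Hspa4l at 0.40 and Rbm3, a cold-inducible RNA-binding protein, at 0.36 had no overlap but were under 1.5-fold. With Agilent processed signals they differed by 0.74 and 0.59, again without overlap, and so reached 1.5-fold. With median centring and with Cy5 alone, Rbm3 overlapped. The median of those 12 genes was 0.01, and Hsph1 was lowest at -0.14.

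For the xenobiotic list the median was 0.17 over 17 genes (0.02 without control 2), with Por its 1 follower. Alas1, the first enzyme of heme synthesis, differed by 0.44 and overlapped, and Ugt2b1 by -0.50. Transcripts of 3 classical AhR targets were measured, with differences of 0.14 for Cyp1a2, -0.01 for Nqo1 and 0.11 for Ugt1a6, and Cyp1a1 was not well above background on enough arrays. Growth hormone axis genes had a median of -0.09 over 15 members, 12 with a lower mean. Bcl6, a repressor controlled by growth hormone, read -0.96, 1.48, 1.62 and -0.76 on the high arrays against -0.64, -0.20, -0.78 and -0.76. Control 1 and AhR 2 alone were above 0. On the same 2 arrays Onecut1 was lowest, at -1.53 and -1.24, and Socs2, a target of growth hormone signalling, was lowest at -0.30 and -0.21.

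**Figure D3:**
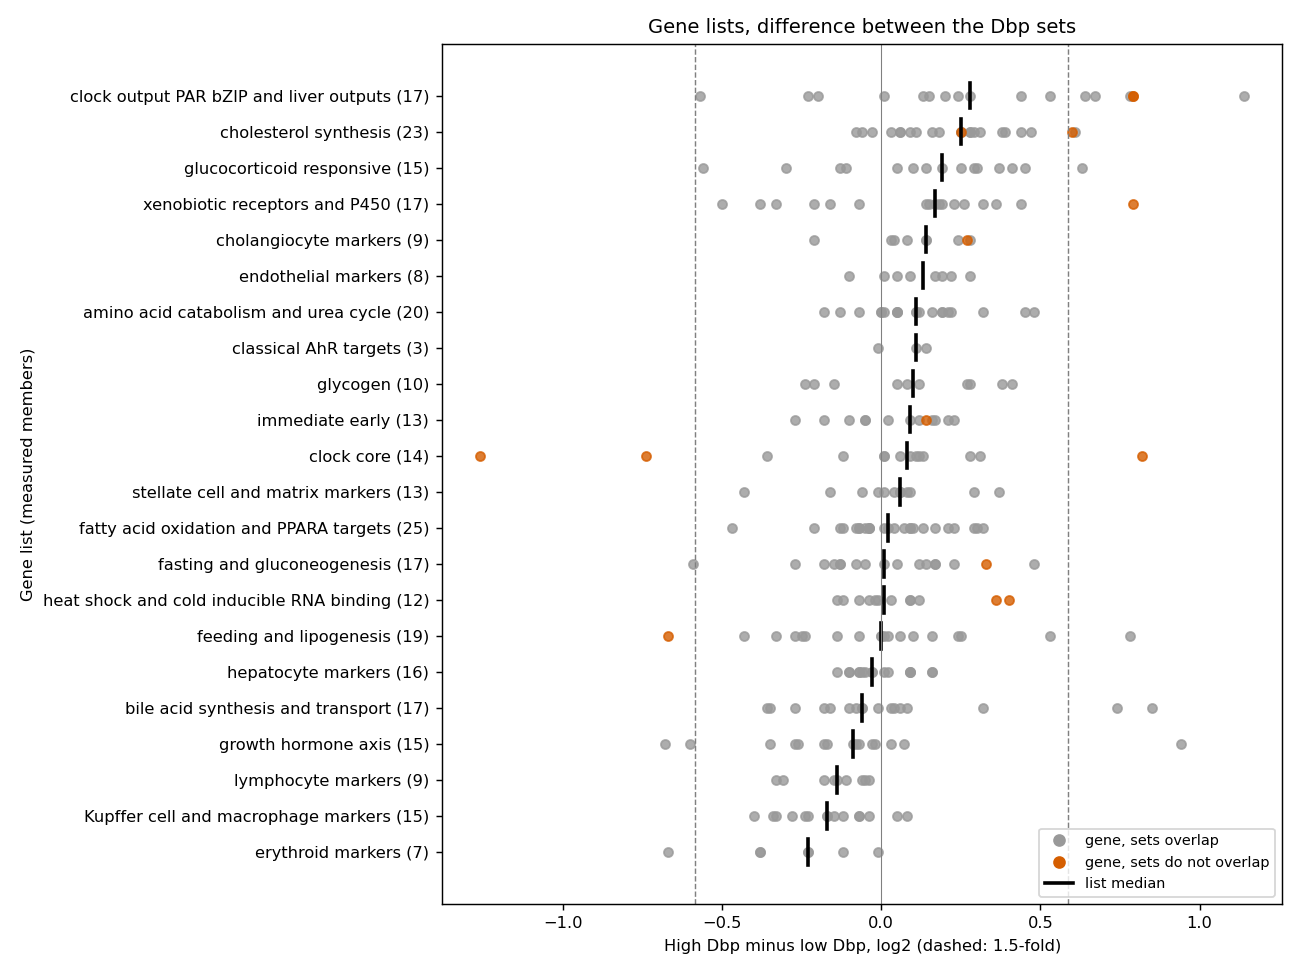
Difference between the high and the low Dbp set (log2) for each measured gene of 22 lists, with the list median as a black bar, dashed lines at 1.5-fold and orange for genes whose sets of 4 arrays do not overlap. List medians run from -0.23 for erythroid markers to 0.28 for clock outputs, and the clock core list holds both Bmal1 at -1.26 and Per2 at 0.82.

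No marker of another cell type followed the split. All 7 erythroid markers had a lower mean in the high set, with a median of -0.23, array medians from -1.22 to -0.12 in the high and -0.68 to 0.31 in the low set, and Ahsp lowest at -0.67. Without control 2 the erythroid median was -0.06, and without AhR 3 it was -0.10. Of 15 Kupffer cell and macrophage markers, 13 had a lower mean, with a median of -0.17 and array medians from -0.69 to 0.41 and from -0.13 to 0.17. That median was 0.01 without control 1, the array at -0.69. All 9 lymphocyte markers had a lower mean, with a median of -0.14, and array medians from -0.35 to 0.18 in the high and 0.05 to 0.29 in the low set. Medians were 0.14 for 9 cholangiocyte, 0.13 for 8 endothelial and 0.06 for 13 stellate cell markers, and the 1 exocrine pancreas marker measured differed by -0.17. The sets overlapped for every one of these markers except Cftr, at 0.27. In bulk liver, fewer cells of a type and less RNA per cell cannot be told apart, and the part of these markers in the differences of the clock and metabolic genes was not tested.

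Both treatment groups held arrays of each set, so the split could be read within them. Among controls, control 1 against the mean of the other 3 differed by -1.0 for Bmal1, -0.30 for Npas2, 0.47 for Per2, 0.52 for Tef and 0.95 for Hsd17b2. Among AhR arrays, the mean of AhR 1 to 3 against AhR 4 differed by -1.67, -1.18, 1.38, 0.94 and 2.19 for the same genes. Non-overlap of the sets fixes the sign of these values, so they show size alone, and each rests on 1 array on one side. Por differed by 0.74 within each group. Gpm6a and Acsbg1 were wider among controls, at 1.24 and -1.18, than among AhR arrays, at 0.43 and -0.25. So were Nat8, at 0.85 against 0.41, and Nat8f2, at 0.69 against 0.40. This contrast of sizes was not tested. By slide row, each of which held 2 high and 2 low arrays, Bmal1 differed by -1.52 and -1.01, Per2 by 1.11 and 0.53, and Hsd17b2 by 1.67 and 1.32. Slide columns were not balanced in this way. Column 1 held control 1 and AhR 1 of the high set, and column 4 held control 4 and AhR 4 of the low set. Only columns 2 and 3 held arrays of each set, so slide column and Dbp set cannot be fully told apart.

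**Figure D4:**
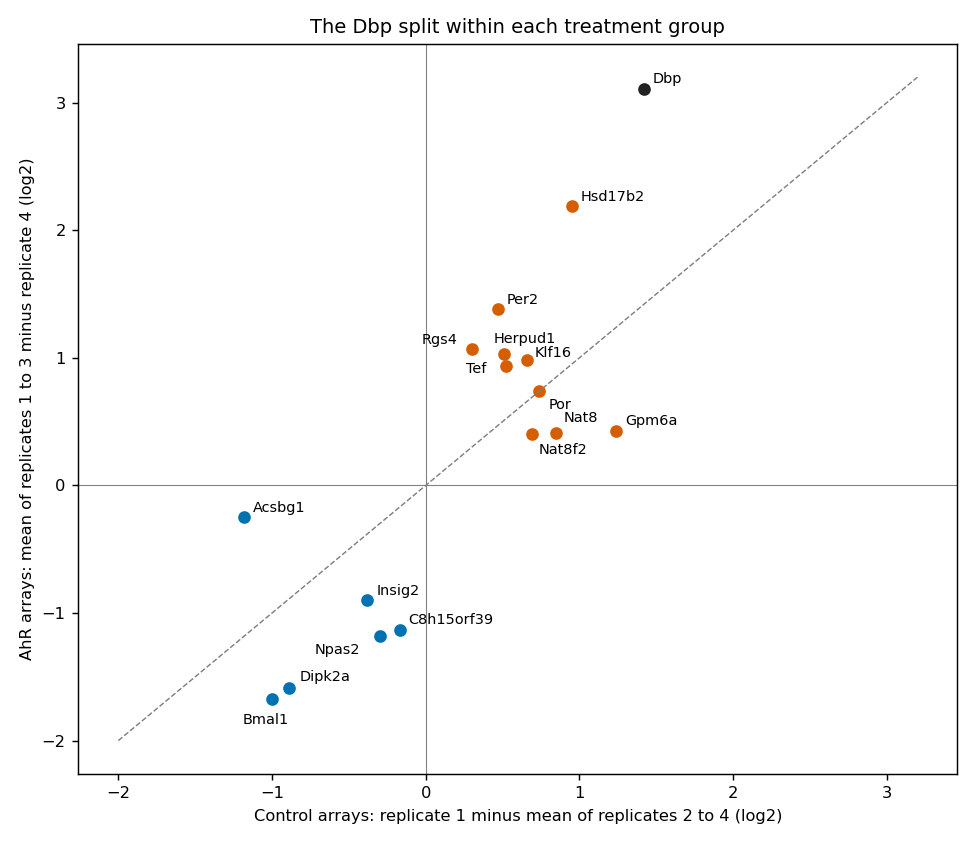
Difference between high and low Dbp arrays (log2) among the 4 control arrays on the horizontal axis and among the 4 AhR arrays on the vertical axis, for Dbp (black) and the genes higher (orange) or lower (blue) in the high set, with a dashed line at equality. Dbp, at 3.11, lies furthest from 0 among the AhR arrays, followed by Hsd17b2 at 2.19 and Bmal1 at -1.67. Gpm6a, Acsbg1, Nat8 and Nat8f2 lie nearer the horizontal than the vertical axis.

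The comparison the labels define, AhR against control, takes its groups from the labels and not from Dbp, and is the one that was tested. Dbp averaged 0.12 ± 1.66 in AhR and -0.75 ± 0.86 in control livers (SD, n = 4 each), a difference of 0.87 with a standard error of 0.71 and a 95% interval of -0.69 to 2.43 in limma. The exact permutation p was 0.371, two-sided, where 4 against 4 arrays can reach no lower than 0.0286. Bmal1 differed by -0.52 (SE 0.41), Npas2 by -0.38 (SE 0.24) and Per2 by 0.25 (SE 0.31). In limma, 0 of 17857 probes (0%) passed an adjusted p of 0.05, and 288 (1.61%) had an unadjusted p below it. None of the 14 clock core genes and none of the 16 followers described passed, and the lowest adjusted p was 1. The lowest unadjusted limma p in the clock core was 0.0947, for Bhlhe40. The 95% interval was -1.43 to 0.39 for Bmal1 and -0.47 to 1.74 for Hsd17b2. Treatment and Dbp set share the side of 6 of 8 arrays, so the followers were chosen on nearly the same contrast. Their AhR values are therefore a description, and their shared sign, in all 16, carries no separate information.

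**Figure D5:**
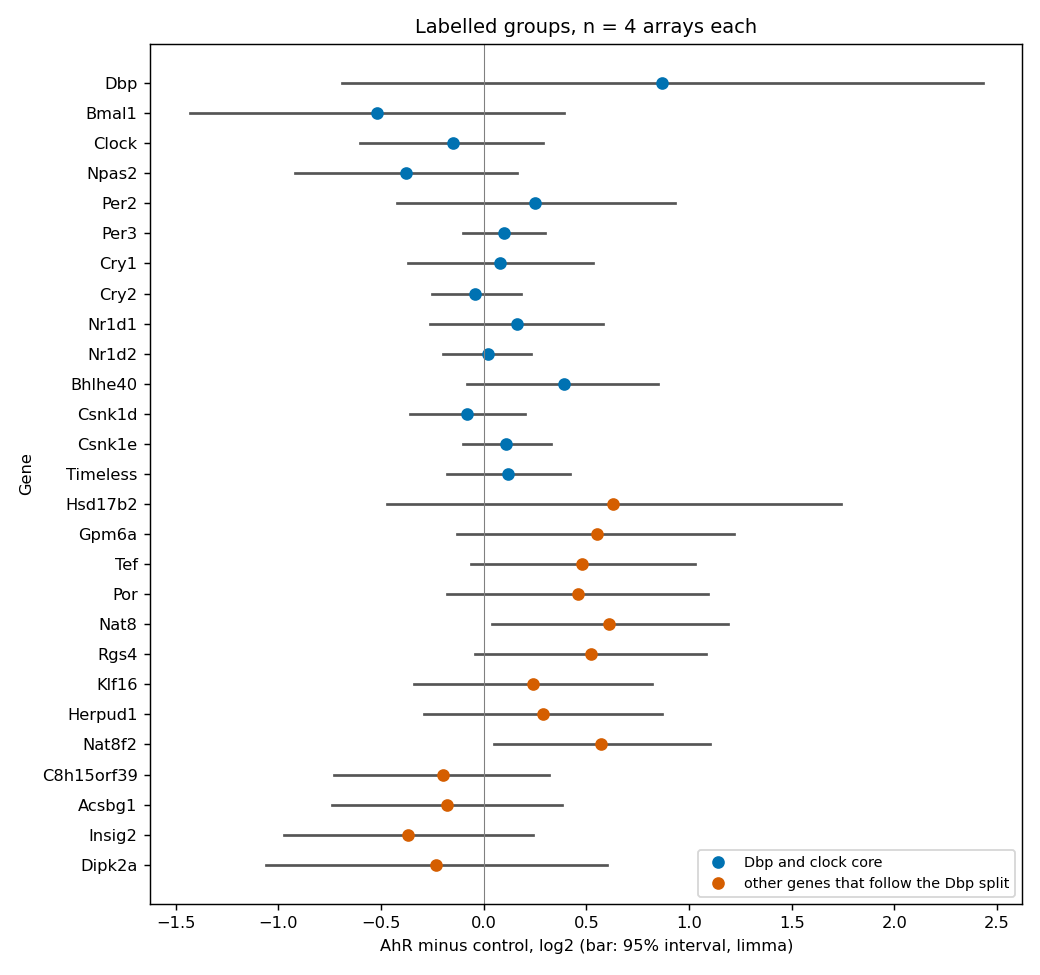
AhR minus control difference (log2) with its 95% limma interval for Dbp and the clock core genes named (blue) and the other genes named that follow the Dbp split (orange), 4 arrays in each group. The Dbp interval runs from -0.69 to 2.43, and that of Bmal1 from -1.43 to 0.39.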

How the data were processed

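Spot intensities are the median brightness of spot and local background that the authors deposited as Agilent Feature Extraction 10.7.3.1 wrote them, per the file headers. The deposited log2 value table, of unstated scale and centring, was set against log2 Cy5/Cy3 after loess without background subtraction. The table followed these values (r across probes 0.9898 to 0.9943, slope 0.978 to 0.988), and its column medians were 0.00569 to 0.0165. It served for the Dbp rule and as an alternative. In R 4.3.3 with limma 3.58.1, medians were corrected by normexp (offset 50) and loess within arrays. Control and outlier spots were left out and the spots of a probe averaged. Of 30367 probes, 17857 had Cy5 well above background on at least 4 arrays, and 11655 of these matched 1 gene by RefSeq accession, giving 10003 genes. The brightest Cy5 probe stood for a gene.

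The members and gene lists were chosen with earlier results of these data known. Named were Dbp, the measured clock core, up to 12 followers in each direction that differ the same way in both treatment groups, and the 3 members of each clock output or metabolic list with the widest difference. Other list members, such as Noct, Nampt, Usp2, Wee1, Nfil3, Idi1, Fdft1, Cyp51, Sc5d, Srebf2, Insig1, Fkbp5, Tsc22d3, Ahsp and Cftr, were named after their values were seen, as were the classical AhR targets. Some list members are counted in the summaries and are not reported here by name. AhR was tested against control with limma (Benjamini-Hochberg over all kept probes) and exact permutation. The limma comparison was tested on simulated arrays with independent noise. It called 51.6% of the probes changed 1.5-fold and 89.0% of those changed 2-fold. Noise shared between probes was not part of that simulation. The labels do not say whether pools share litters, so p-values measure the spread between pools. The number of arrays limits the precision. Arrays of a younger age (21 days) from the study, which comprised 72 in all, were not analysed here.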

Additional observations from a re-analysis of the deposited data

Results flagged for a closer look

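Among 134 groups of 4 arrays from named genes, 6 (4.48%) held an array whose gap to the nearest other exceeded Dixon's critical share of the group's range, and chance gives about 1 in 20. On AhR 4, C8h15orf39 was at 0.20 while the other AhR arrays lay between -0.96 and -0.90. Sds was at 0.66 on control 4, against -0.21 to -0.09 on the other control arrays. Sqle was at -0.38 on AhR 1, against -1.34 to -1.22. On control 2, Junb was at -0.26, against 0.31 to 0.40, and Rbm3 was at -1.11, against -0.73 to -0.66. Bcl6 was at 1.48 on AhR 2, against -0.96 to -0.76 on the other AhR arrays.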

How the results depend on the processing

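Beside the 24 of 17854 probes (0.134%; 12 higher and 12 lower) that followed the split, 98 followed with Agilent processed signals (23 shared), 56 with treatment as a term, 142 with the replicate block, 340 with no fold minimum and 6 with a 2-fold minimum. Values adjusted by a fitted term can overlap less through the adjustment itself. Fewer arrays make non-overlap easier: leaving out 1 array gave 25 to 73, with 45 without control 1, 67 without AhR 3 and 73 without control 4. Settings added after seeing the data gave 154 without AhR 3 and control 4, and 1 in the Cy3 channel alone. Between 12 and 17 of the 17 followers still met the rule without 1 array, and 10 did under median centring, which raised the share of genes with a higher mean from 50.4% to 63.8% and left Por, Rgs4, Klf16, Insig2 and Acsbg1 among those overlapping; the cause was not tested. Overlap also arose for Nat8 and Nat8f2 with treatment as a term, for Insig2 with slide row as a term and for C8h15orf39 with processed signals. Rgs4 differed by 1.40 with processed signals, and Npas2 by -0.35 as a mean of its probes. Control and AhR arrays of the same replicate number did not deviate together (r of deviations 0.00, -0.06, 0.05 and -0.37). The labels do not say whether these numbers pair the pools. The replicate block can use replicates 2 and 3 alone, and in both of these the high array was AhR and the low array control. Dbp set and treatment therefore cannot be told apart under it. The block gave medians of 0.07 for clock outputs, -0.21 for feeding, -0.04 for cholesterol synthesis and -0.71 for erythroid markers, with Insig2 at -0.21. With processed signals the medians were 0.28 for cholangiocyte and -0.39 for lymphocyte markers, with median centring 0.13 for fatty acid oxidation, and with treatment as a term 0.08 for cholangiocyte markers. Leaving out 1 array gave -0.11 to 0.07 for fasting and 0.03 to 0.17 for cholangiocyte markers. For AhR minus control, limma called 0 probes under every alternative run, with a lowest adjusted p of 0.214, without control 4. Its sign turned for Per3 (0.00 with Cy5 alone) and Nr1d2 (-0.07 with processed signals, -0.01 with Cy5 alone). Leaving out 1 array, it ran from -0.11 to 0.24 for Cry1, -0.08 to 0.03 for Cry2, -0.01 to 0.29 for Nr1d1, -0.04 to 0.07 for Nr1d2 and 0.00 to 0.18 for Timeless. Every other alternative run kept the direction of this difference for Dbp and the 13 clock core genes named.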
